A study of Mus musculus with 8 samples.

Results

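The enzymes and enzyme regulators of glycolysis, gluconeogenesis and fructose and galactose use were followed through 2 sorted fractions of the mouse small intestinal epithelium. The list names 41 mouse genes by symbol, from the hexokinases to the phosphoglucomutases. It was set with no cut-off on their values, but earlier results of these data were known at the time. All 41 were found among the 23318 Ensembl genes measured in every library, and 39 were high enough to be tested. Total RNA was sequenced from cells sorted by flow cytometry on CD24, a cell surface glycoprotein. Cells carrying the leukocyte antigen CD45 or bound by the lectin of Ulex europaeus were depleted from both fractions. The CD24Mid fraction, which the study also calls CD24low, has 4 libraries numbered 1, 3, 5 and 7, and the CD24Neg fraction has 4 libraries numbered 2, 4, 6 and 8. The study's design text calls the 4 libraries of a fraction biological replicates, and p-values measure the spread between them. The labels used here give no strain, age, genotype, treatment or number of mice per library.

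Glycolysis splits glucose to pyruvate, which is reduced to lactate or enters mitochondria through the pyruvate dehydrogenase complex. Gluconeogenesis runs most of the same reversible steps backwards and bypasses the irreversible ones with pyruvate carboxylase, phosphoenolpyruvate carboxykinase, fructose bisphosphatase and glucose-6-phosphatase. The small intestine is also a main site of dietary fructose use, in which ketohexokinase makes fructose 1-phosphate that is then split to trioses. Many of the steps are catalysed by paralogs with different kinetics or tissue distribution, so the paralogs were set against each other within each library.

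Enterocyte markers separated the fractions. Summed over 8 enterocyte markers, libraries reached 14803 to 26246 (CD24Mid) and 427300 to 764527 (CD24Neg), and over 5 stem cell markers 44649 to 58702 and 1794 to 5258. Sums of 5 B and plasma cell markers ran from 2868 to 7443 (CD24Mid) and from 172.7 to 403.7 (CD24Neg). The 6 T cell markers summed to 48.8 to 162.5 and to 384.9 to 6767, with CD24Neg libraries 2 (6767) and 8 (4913) highest. Goblet cell markers (5 genes) summed to 19409 to 36771 and to 100120 to 266137, and enteroendocrine markers (5 genes) to 3672 to 10807 and to 884.9 to 1384. In the lists for smooth and striated muscle, enteric glia and neurons and erythroid cells the sums did not exceed 166.3 in any library, and Myh11, Des, Gfap, S100b, Hba-a1, Hba-a2 and Alas2 stayed below 5 in each. Mitochondrially encoded genes took 8.58% ± 0.518 (SD, n = 4) of the summed values in CD24Mid and 32.55% ± 4.63 (n = 4) in CD24Neg (exact two-sided permutation p = 0.0286, the smallest that 4 against 4 libraries allow). Estimated depths were 17.5 to 19.6 M reads for the CD24Mid libraries and 12.5 to 20.6 M for the CD24Neg ones. The mitochondrial share and the sums of enterocyte, stem, goblet, enteroendocrine, T cell and B and plasma cell markers did not overlap between fractions. Nor did the sums for enteric glia and neurons. The muscle and erythroid sums and the estimated depths overlapped (depths, exact two-sided permutation p = 0.143). The part of all these in the differences below was not tested.

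Most of the 39 tested genes were higher in CD24Neg. In limma across all 12906 tested genes, 27 of the 39 were higher in CD24Neg at an adjusted p under 0.05, where 34.0% of all tested genes were, and 4 were lower, where 34.3% were. The other 8 did not pass. Either direction together, 31 of 39 passed against 68.3% of all tested genes. The median log2 fold change, CD24Neg minus CD24Mid, was 1.13 over the 39 and -0.02 over all tested genes. Called genes that differed by over 2-fold were 22 higher and 2 lower ones. All 4 libraries of 1 fraction exceeded all 4 of the other in 29 of the 39, against 63.8% of all tested genes. These are bulk samples, in which fewer cells of a type and less RNA per cell cannot be told apart. Each of the 39 reached at least 23.8 in all 8 libraries, so none passed the filter on low values (at least 10 in at least 4 libraries) through 1 fraction alone. Values are the deposited normalised values, which are not divided by transcript length, and log2 fold changes are differences of mean log2(value + 0.5), which are too small for low genes. Per-library values are given in the order 1, 3, 5 and 7 for CD24Mid and 2, 4, 6 and 8 for CD24Neg.

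**Figure D1:**
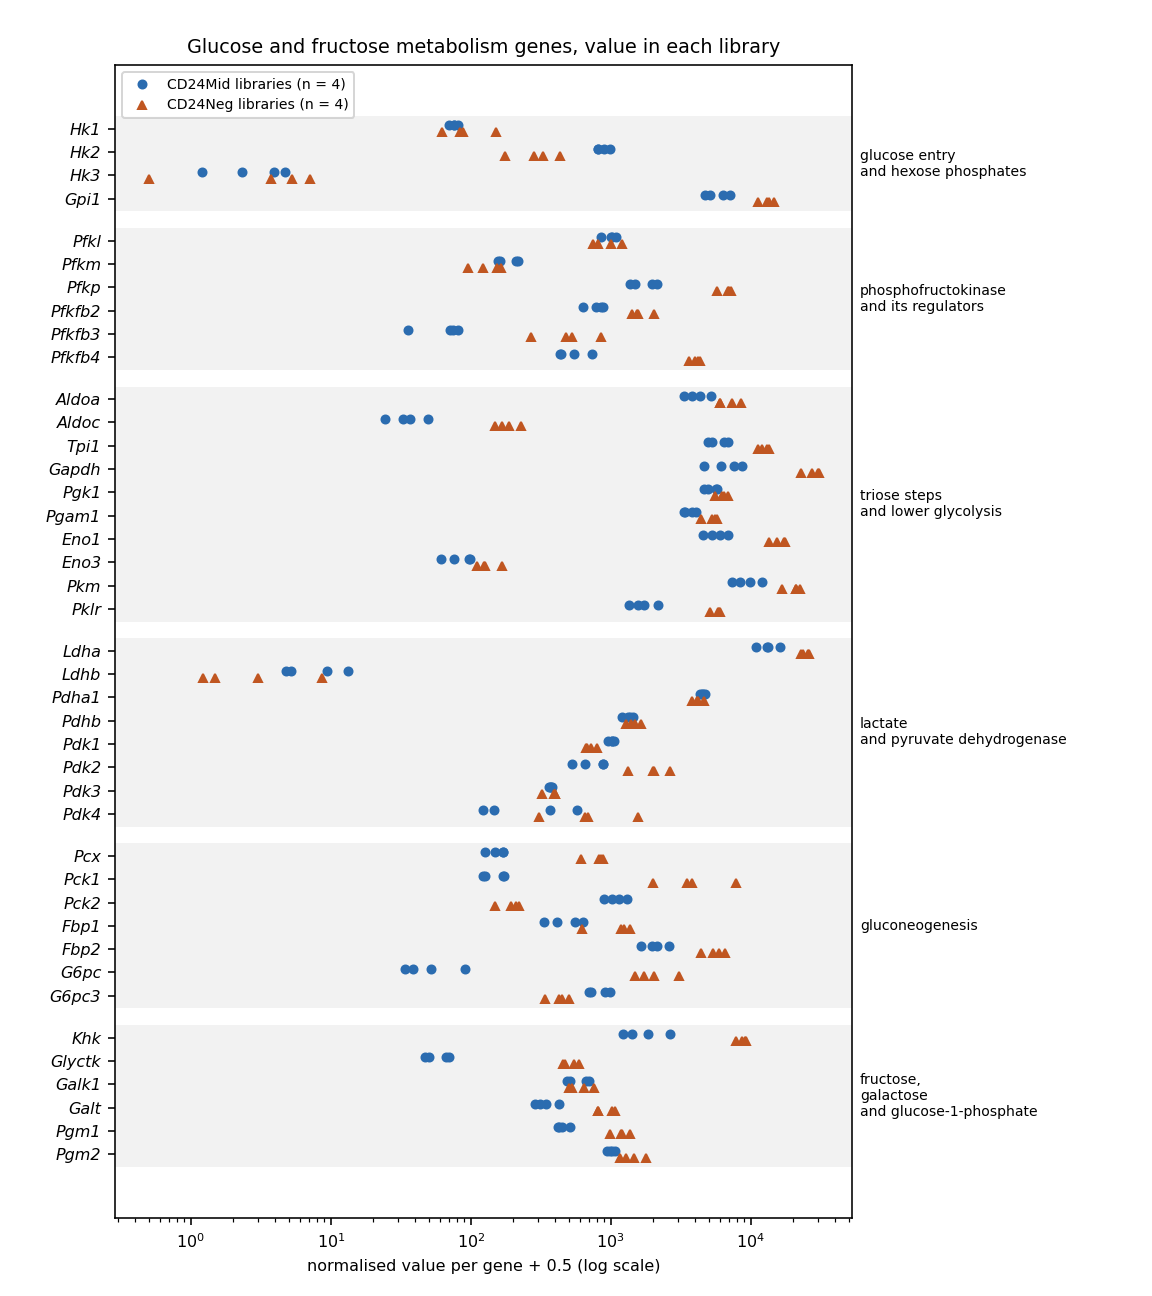
Value of each of the 41 genes in each library (x axis, normalised value + 0.5, log scale), with genes in rows grouped by role. Circles are the 4 CD24Mid and triangles the 4 CD24Neg libraries. The fractions lie farthest apart for G6pc and Pck1, and Hk2, Pck2, G6pc3 and Pdk1 are the 4 genes called lower in CD24Neg.

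The scaling between libraries set how many genes fell on each side. In what is here called total scaling, each library was divided by its sum without the 20 genes of highest mean value over all libraries. The median log2 fold change of all tested genes then moved from -0.02 to -0.44. The split of calls over all genes then went from 4386 higher and 4424 lower (49.8% higher) to 2842 and 6497 (30.4% higher), and that of the 39 from 27 and 4 to 22 and 9. Divided by the sum over all but the mitochondrially encoded genes, here called nuclear scaling, all genes gave 2723 and 6695 (28.9% higher, median -0.48) and the 39 gave 22 and 10. In both of these scalings 32 of the 39 lay above the median of all genes, as in the fit reported here. A factor per library shifts every gene and the median by nearly the same amount, so this count could hardly change. With quantile normalization 29 of the 39 lay above the median of all genes. Ratios between genes within a library do not depend on a scaling by 1 factor per library.

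**Figure D2:**
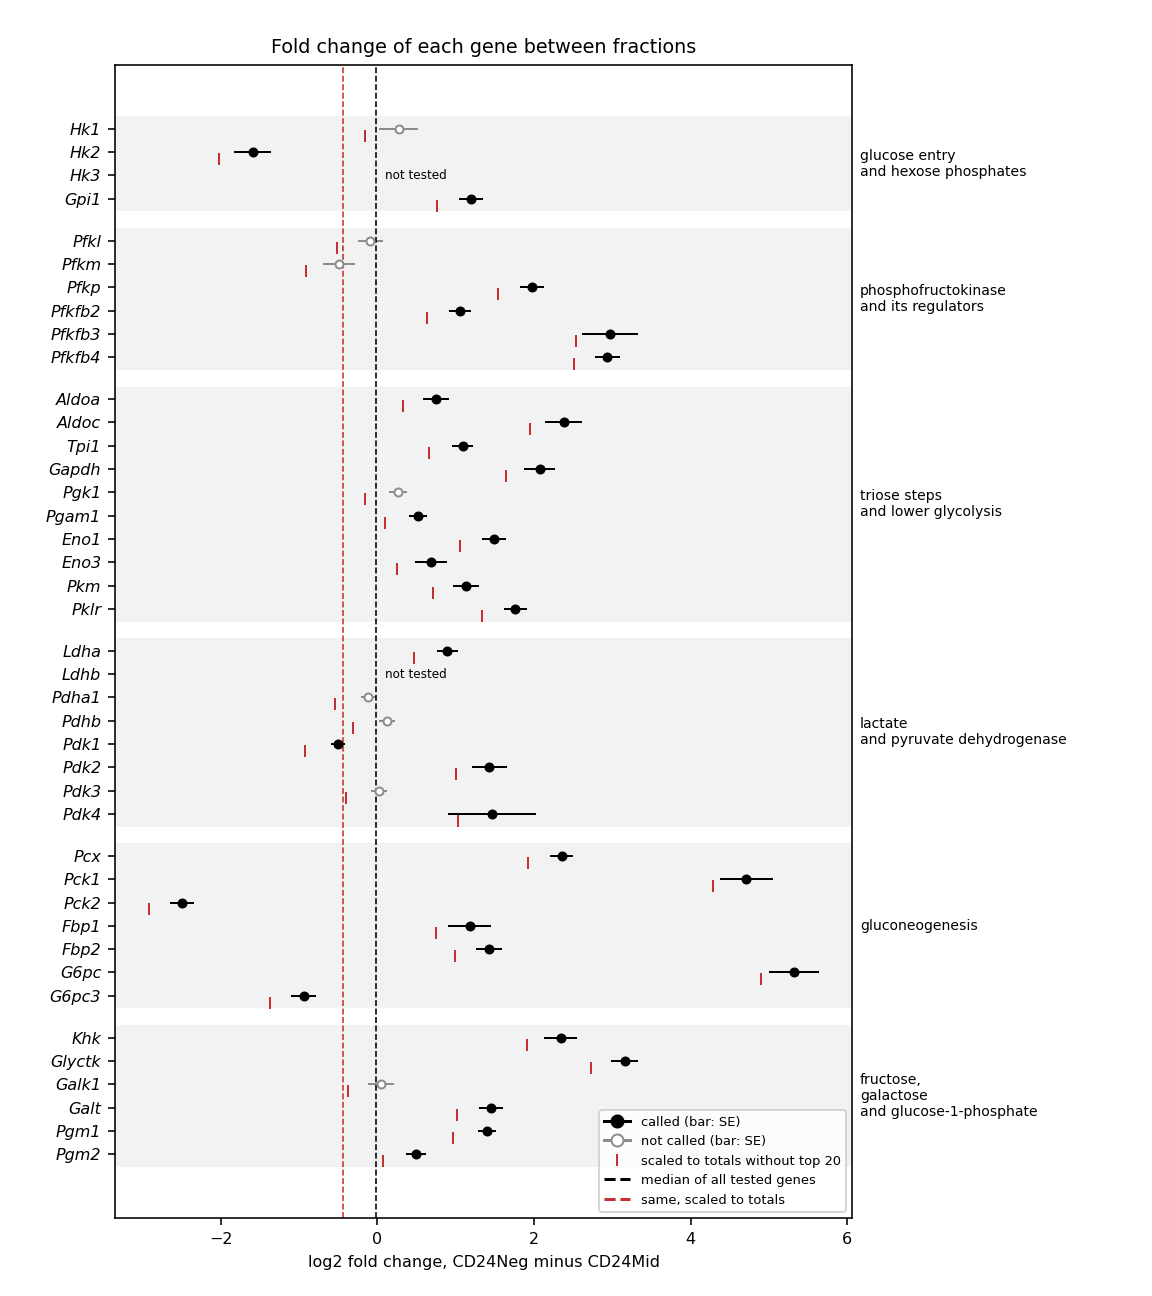
Log2 fold change of each gene (x axis, CD24Neg minus CD24Mid), with the SE as a bar. Filled points passed an adjusted p of 0.05 and open ones did not, red ticks give the value under total scaling (sums over all but the 20 most abundant genes), and dashed lines mark the median of all tested genes under each scaling (-0.02 and -0.44).

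The hexokinases, which trap glucose in the cell as glucose 6-phosphate, did not move together. Hk2 measured 813.2, 899.7, 812.1 and 981.0 in CD24Mid and 435.1, 327.0, 174.9 and 281.3 in CD24Neg. Every CD24Neg value was below every CD24Mid value. Hk2 was 3.02-fold lower in CD24Neg (log2 fold change -1.59, SE 0.23, adjusted p = 1.65e-04). Hk1, the widely expressed paralog, measured 75.9, 75.9, 69.1 and 80.5 in CD24Mid and 150.0, 83.9, 61.4 and 87.7 in CD24Neg. Its fractions overlapped and it did not pass (log2 fold change 0.27, SE 0.25, adjusted p = 0.364). The CD24Neg library with the highest Hk1, library 2, also held the largest T cell sum, and without it the log2 fold change was 0.04. Hk3 was too low to be tested, at 0.697 to 4.17 in CD24Mid and 0 to 6.56 in CD24Neg. Per kb of exon annotated in GENCODE M21, which may not be the authors' gene models, the Hk2 level was 146.8 ± 13.5 (SD, n = 4) against 8.83 ± 0.552 for Hk1 in CD24Mid, and 51.0 ± 18.1 against 11.2 ± 4.45 in CD24Neg. Within a library the log2 ratio of Hk1 to Hk2 was -3.53 ± 0.0804 in CD24Mid and -1.67 ± 0.208 in CD24Neg, without overlap (exact two-sided permutation p = 0.0357 after Benjamini-Hochberg adjustment over 20 pairs, n = 4 a fraction). Gpi1, which interconverts glucose 6-phosphate and fructose 6-phosphate, was 2.28-fold higher in CD24Neg, at 4693 to 7100 against 11194 to 14735 (adjusted p = 6.73e-05).

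Phosphofructokinase, the committing step of glycolysis, changed its paralog mix. Pfkp, the platelet-type subunit, measured 2124, 1363, 1485 and 1955 in CD24Mid and 6852, 5775, 7179 and 6977 in CD24Neg. These ranges did not overlap, and the gene was 3.92-fold higher in CD24Neg (log2 fold change 1.97, SE 0.15, adjusted p = 2.40e-06). Pfkl, the liver-type subunit, measured 1090, 998.1, 1018 and 847.9 against 997.3, 1211, 806.4 and 750.6. Its fractions overlapped (log2 fold change -0.09, SE 0.15, adjusted p = 0.622). Pfkm, the muscle-type subunit, measured 218.0, 210.5, 155.4 and 161.4 against 154.6, 163.2, 95.7 and 121.7 and did not pass (log2 fold change -0.49, SE 0.20, adjusted p = 0.0519). Pfkm did pass when CD24Mid library 5 (adjusted p = 0.0441), CD24Neg library 2 (0.0427) or CD24Neg library 4 (0.032) was left out. Both Pfkl and Pfkm were lower in CD24Neg under total scaling (adjusted p = 0.0115 and 0.00274). Per kb of exon, CD24Mid held Pfkl at 148.1 ± 15.2, Pfkp at 129.2 ± 27.3 and Pfkm at 55.8 ± 9.72, so that Pfkl and Pfkp lay within their spread. In CD24Neg Pfkp led at 499.6 ± 46.9, followed by Pfkl at 141.0 ± 31.3 and Pfkm at 40.1 ± 9.30. By value, not divided by length, Pfkp was above Pfkl in every library of both fractions. The log2 ratio of Pfkl to Pfkp was -0.962, -0.449, -0.545 and -1.21 in CD24Mid and -2.78, -2.25, -3.15 and -3.22 in CD24Neg, a difference of -2.06 (SE 0.28) without overlap (exact two-sided permutation p = 0.0357, adjusted over the pairs). For Pfkl to Pfkm the ratios overlapped (difference 0.40, SE 0.14, exact adjusted p = 0.101).

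Bifunctional enzymes make and remove fructose 2,6-bisphosphate, the activator of phosphofructokinase and inhibitor of fructose bisphosphatase. The 3 of them among the 41 genes were higher in CD24Neg. Pfkfb4 measured 731.2, 546.3, 436.8 and 444.2 in CD24Mid against 4016, 3621, 4170 and 4372, making it 7.64-fold higher (log2 fold change 2.93, SE 0.16, adjusted p = 3.77e-07). Pfkfb3, the isoform with the highest ratio of kinase to phosphatase activity, measured 35.4, 74.3, 70.8 and 80.0 against 266.7, 530.0, 846.3 and 477.4. It was 7.81-fold higher (log2 fold change 2.97, SE 0.36, adjusted p = 4.10e-05). Pfkfb2, the heart isoform, was 2.08-fold higher, at 634.4 to 885.0 against 1425 to 2043 (adjusted p = 9.50e-05). None of these 3 overlapped between fractions. Pfkfb1, the family member outside the 41 and named after its value was seen, was low and 2.39-fold lower in CD24Neg, at 25.8 to 49.8 against 11.2 to 22.9 without overlap (log2 fold change -1.26, SE 0.31, adjusted p = 0.00497). Pfkfb3 gained on Pfkfb2 (Pfkfb2 to Pfkfb3, log2 ratio difference -1.91, SE 0.38, exact adjusted p = 0.0357, no overlap). Against Pfkfb4 its ratio was indistinguishable between fractions at this spread (Pfkfb4 to Pfkfb3, difference -0.03, SE 0.55, exact adjusted p = 0.943).

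Of the 10 genes from aldolase to pyruvate kinase, 9 were higher in CD24Neg, none was lower, and Pgk1 did not pass. Gapdh, the triose phosphate dehydrogenase, measured 8682, 7642, 4604 and 6144 in CD24Mid and 30260, 30728, 27262 and 23041 in CD24Neg. It was 4.20-fold higher without overlap (log2 fold change 2.07, SE 0.20, adjusted p = 8.10e-06). Eno1, the ubiquitous enolase, measured 6905, 6077, 4571 and 5328 against 15521, 17259, 17468 and 13444, a 2.80-fold difference (adjusted p = 1.26e-05). Tpi1, triose phosphate isomerase, was 2.13-fold higher, at 4980 to 6861 against 11280 to 13520. Smaller differences were measured for Pgam1, the phosphoglycerate mutase, at 3309 to 4073 against 4384 to 5705 (1.43-fold, adjusted p = 0.00293). Pgk1, the phosphoglycerate kinase, measured 5754, 5659, 4601 and 4979 against 6235, 6924, 6492 and 5531. Its fractions overlapped (log2 fold change 0.26, SE 0.12, adjusted p = 0.0667). It passed without CD24Mid library 1 (log2 fold change 0.30, adjusted p = 0.0497) or CD24Neg library 8 (0.33, 0.0362). Neighbouring enzymes of 1 linear sequence thus differed between fractions by 4.20-fold at Gapdh and by 1.20-fold, without passing, at Pgk1.

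The aldolases, enolases and pyruvate kinases each held paralogs that moved by different amounts. Aldoa measured 5162, 4329, 3344 and 3831 in CD24Mid and 8572, 7341, 6012 and 6075 in CD24Neg, 1.68-fold higher (adjusted p = 0.00222). Aldoc, the brain aldolase, rose more, from 23.8 to 48.9 across CD24Mid libraries to 147.5 to 227.7 across CD24Neg libraries (5.19-fold, adjusted p = 1.29e-05). The log2 ratio of Aldoa to Aldoc was 6.89 ± 0.163 in CD24Mid and 5.26 ± 0.223 in CD24Neg, a difference of -1.63 (SE 0.14) without overlap (exact adjusted p = 0.0357). Pkm and Pklr encode the pyruvate kinases, Pklr the liver and red cell form. Pkm measured 11974, 9858, 7346 and 8397 in CD24Mid and 22446, 21174, 21186 and 16667 in CD24Neg (2.19-fold, adjusted p = 1.81e-04), and Pklr 2185, 1737, 1346 and 1559 against 5810, 5905, 6032 and 5076 (3.39-fold, adjusted p = 3.45e-06). Both were without overlap. Their log2 ratio was among the tightest measured, 2.46 ± 0.0320 in CD24Mid and 1.83 ± 0.0966 in CD24Neg (difference -0.63, SE 0.05, exact adjusted p = 0.0357). Pkm remained the more abundant per kb in CD24Neg, at 4073 ± 507.7 against 1763 ± 132.8 for Pklr. Eno3, the muscle enolase, was low and 1.60-fold higher, at 61.2 to 97.6 against 110.7 to 166.9 (adjusted p = 0.0131).

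Several of these calls depended on the scaling. Under total scaling, Aldoa (log2 fold change 0.32, adjusted p = 0.0983), Pgam1 (0.09, 0.458) and Eno3 (0.25, 0.293) no longer passed. Aldoa (0.25, 0.172), Pgam1 (-0.00, 0.977) and Pkm (0.38, 0.0578) did not pass with quantile normalization, where 6 of the 10 genes were called. Eno3 also missed the threshold without CD24Neg libraries 2 and 8, the pair richest in T cell markers (0.56, adjusted p = 0.0667). Aldoc, Tpi1, Gapdh, Eno1 and Pklr were called higher under every alternative run.

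Ldha, the lactate dehydrogenase subunit that favours lactate formation, was the most abundant of the 41 per kb of exon in both fractions. It measured 16303, 13270, 10874 and 13011 in CD24Mid and 26004, 25861, 23495 and 23025 in CD24Neg, 1.86-fold higher without overlap (log2 fold change 0.89, SE 0.14, adjusted p = 2.41e-04). With quantile normalization Ldha did not pass and its sign turned (log2 fold change -0.06, adjusted p = 0.729). Ldhb, the other main subunit, was too low to be tested, at 4.31 to 12.8 against 0.715 to 8.18. Pdha1 and Pdhb, which encode the subunits of the first enzyme of the pyruvate dehydrogenase complex, did not pass. Pdha1 measured 4368 to 4692 against 3814 to 4619 (log2 fold change -0.12, SE 0.09, adjusted p = 0.292) and Pdhb 1199 to 1448 against 1289 to 1636 (0.12, SE 0.10, adjusted p = 0.325). Both were called lower in CD24Neg under total scaling (log2 fold changes -0.55 and -0.31, adjusted p = 2.21e-04 and 0.0298).

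The kinases that inactivate the complex went in different directions. Pdk2 measured 883.4, 880.1, 657.9 and 530.9 in CD24Mid and 2019, 2034, 2629 and 1320 in CD24Neg, 2.69-fold higher without overlap (log2 fold change 1.43, SE 0.22, adjusted p = 2.68e-04). Pdk1, known as a hypoxia-inducible form, measured 1016, 960.0, 1017 and 1052 against 795.3, 662.7, 677.0 and 725.9. Each CD24Neg value was below each CD24Mid value, and Pdk1 was 1.42-fold lower (log2 fold change -0.50, SE 0.09, adjusted p = 6.48e-04). Pdk3 measured 368.9, 382.4, 361.5 and 372.7 against 393.5, 397.1, 397.1 and 324.6 (log2 fold change 0.02, SE 0.10, adjusted p = 0.865). Its CD24Neg library 8 stood below the other libraries of both fractions. Pdk3 was lower in CD24Neg under total scaling (-0.41, adjusted p = 0.0035). Pdk4, a kinase raised by fasting in many tissues, varied most within a fraction, at 370.3, 146.5, 570.6 and 121.9 in CD24Mid and 659.2, 683.1, 1568 and 308.0 in CD24Neg. The fractions overlapped, and the adjusted p was 0.0408 (log2 fold change 1.46, SE 0.56). This call ended when CD24Mid library 3 (adjusted p = 0.109) or 7 (0.11) or CD24Neg library 2 (0.0921), 4 (0.07) or 6 (0.11) was left out, and with no filter on low values (0.14). It also ended under total scaling (log2 fold change 1.03, adjusted p = 0.114), under nuclear scaling (0.995, 0.125), with no trend and no robust variance (0.0663) and against a fold change of 1.5 (0.179). Without CD24Neg libraries 2 and 8 together the log2 fold change was 2.08.

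By value, not divided by length, Pdk1 was above Pdk2 in every CD24Mid library (log2 ratios 0.202, 0.125, 0.628 and 0.986). Per kb of exon the order of these kinases was Pdk2 (233.4 ± 54.9), Pdk3 (145.0 ± 3.39), Pdk1 (130.0 ± 4.90) and Pdk4 (86.1 ± 60.1) in CD24Mid. In CD24Neg it was Pdk2 (632.4 ± 169.3), Pdk4 (229.1 ± 152.9), Pdk3 (147.6 ± 13.9) and Pdk1 (91.9 ± 7.70), with Pdk4 and Pdk3 within the Pdk4 spread. Pdk2 gained on its paralogs, with a log2 ratio difference of -1.93 (SE 0.31) for Pdk1 to Pdk2 and of -1.41 (SE 0.23) for Pdk3 to Pdk2, each without overlap (exact adjusted p = 0.0357). Against Pdk4 it showed no detectable shift (Pdk4 to Pdk2, difference 0.03, SE 0.59, exact adjusted p = 0.943).

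The widest differences lay in gluconeogenesis, where 5 of 7 genes were higher and 2 lower in CD24Neg. G6pc, the catalytic subunit of glucose-6-phosphatase of liver, kidney and intestine, measured 90.6, 33.5, 51.6 and 38.3 in CD24Mid and 1478, 2034, 3083 and 1734 in CD24Neg. It was 40.0-fold higher (log2 fold change 5.32, SE 0.32, adjusted p = 5.32e-07). Pck1, the cytosolic phosphoenolpyruvate carboxykinase, measured 169.8, 120.8, 172.4 and 125.7 against 3800, 3490, 7881 and 2018, which made it 26.2-fold higher (log2 fold change 4.71, SE 0.34, adjusted p = 1.49e-06). Neither gene overlapped, and CD24Neg library 6 was highest for both, the library with the largest enterocyte marker sum. Their paralogs went the other way. Pck2, the mitochondrial carboxykinase, measured 1136, 1313, 1026 and 893.4 in CD24Mid and 192.6, 211.4, 148.7 and 221.5 in CD24Neg, 5.64-fold lower (log2 fold change -2.50, SE 0.16, adjusted p = 7.23e-07). G6pc3, the ubiquitous glucose-6-phosphatase catalytic subunit, measured 912.3, 986.5, 698.7 and 716.4 against 503.8, 451.3, 337.5 and 428.9, 1.92-fold lower (log2 fold change -0.94, SE 0.16, adjusted p = 3.73e-04). Both were without overlap.

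Each pair thereby changed its order. Per kb of exon Pck2 exceeded Pck1 in CD24Mid (139.9 ± 22.7 against 42.9 ± 8.09) and Pck1 exceeded Pck2 in CD24Neg (1253 ± 732.7 against 24.8 ± 4.13). G6pc3 exceeded G6pc in CD24Mid (372.2 ± 64.3 against 22.2 ± 10.7), and G6pc exceeded G6pc3 in CD24Neg (862.5 ± 292.0 against 193.3 ± 31.2). Ranked per kb among 12505 tested genes with a known length, Pck1 went from rank 8151 in CD24Mid to 662 in CD24Neg and G6pc from 9662 to 954, while Pck2 went from 4078 to 9058 and G6pc3 from 1587 to 3560. The log2 ratio of Pck1 to Pck2 was -2.74, -3.44, -2.57 and -2.83 in CD24Mid and 4.30, 4.04, 5.72 and 3.18 in CD24Neg, a difference of 7.21 (SE 0.56), or 147.5-fold. For G6pc to G6pc3 the ratios were -3.32, -4.86, -3.75 and -4.21 against 1.55, 2.17, 3.19 and 2.01, a difference of 6.27 (SE 0.48), or 76.9-fold. The exact two-sided permutation p was 0.0357 for each after adjustment over the 20 pairs, which is the smallest adjusted value reached.

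**Figure D3:**
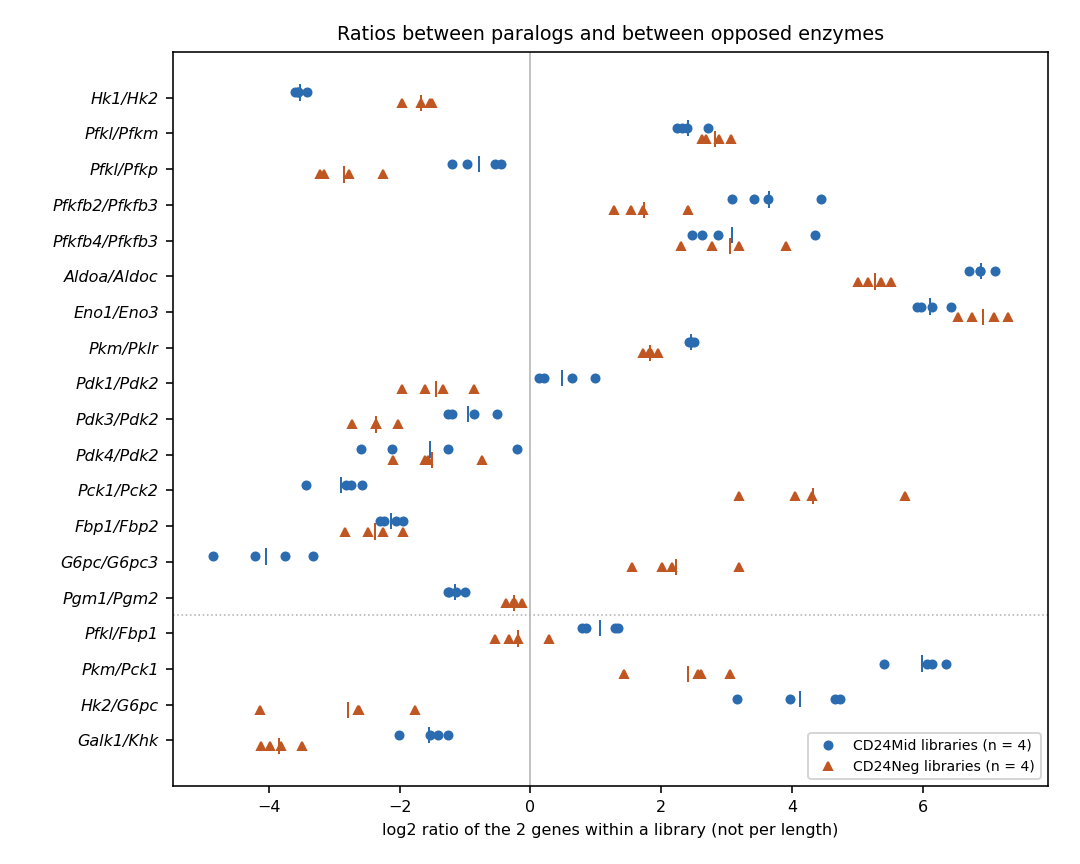
Log2 ratio of the values of 2 genes within each library (x axis, not per length) for tested pairs of paralogs and, below the dotted line, 4 pairs of opposed or parallel enzymes. Circles are CD24Mid and triangles CD24Neg libraries (n = 4 each), and short lines are means. Pck1/Pck2 and G6pc/G6pc3 lie below 0 in every CD24Mid library and above 0 in every CD24Neg library.

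Because these 4 genes moved in opposite directions in pairs, the 250 bases before their annotated starts are shown, from the RefSeq promoter table of build GRCm38.p6. Capitals mark matches on either strand to a variant form of the cyclic AMP response element, TTACGTCA, or to an ATF4-type element, TGATGNAA. They also mark the CCAAT box, spelled by its name, and the TATA box, written TATAAA. In the window of G6pc3 they mark the E-box CACGTG. That motif overlaps on each strand with the hypoxia core ACGTG, which was searched as well. All 4 lie on the plus strand.
Pck1, chr2:173152823-173153072: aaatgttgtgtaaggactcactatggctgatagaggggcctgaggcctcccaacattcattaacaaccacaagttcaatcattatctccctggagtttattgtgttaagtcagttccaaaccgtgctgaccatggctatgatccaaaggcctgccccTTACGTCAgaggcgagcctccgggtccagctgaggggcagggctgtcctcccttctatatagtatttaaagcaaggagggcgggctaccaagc
G6pc, chr11:101367466-101367715: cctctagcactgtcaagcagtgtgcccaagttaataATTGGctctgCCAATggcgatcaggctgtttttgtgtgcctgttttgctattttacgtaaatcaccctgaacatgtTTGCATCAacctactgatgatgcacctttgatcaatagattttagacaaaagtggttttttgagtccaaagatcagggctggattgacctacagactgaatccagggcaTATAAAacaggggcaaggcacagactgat
Pck2, chr14:55540016-55540265: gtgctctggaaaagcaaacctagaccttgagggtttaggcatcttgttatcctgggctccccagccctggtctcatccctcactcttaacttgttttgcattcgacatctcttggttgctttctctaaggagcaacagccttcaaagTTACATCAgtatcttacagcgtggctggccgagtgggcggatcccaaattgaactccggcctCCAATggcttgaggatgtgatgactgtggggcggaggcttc
G6pc3, chr11:102189449-102189698: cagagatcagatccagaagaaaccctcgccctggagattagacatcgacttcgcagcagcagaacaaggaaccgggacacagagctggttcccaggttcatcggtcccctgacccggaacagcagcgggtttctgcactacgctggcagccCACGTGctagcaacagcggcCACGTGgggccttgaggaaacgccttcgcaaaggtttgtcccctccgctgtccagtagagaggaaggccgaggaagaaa

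The Pck1 window held TTACGTCA 93 bases before the start, a match found in 0.5% of all 32851 promoter windows (250 bases before to 50 after a start). G6pc had a TATA box at 29 bases before its start (13.62% of all windows) and 2 CCAAT boxes in opposite orientations. G6pc and Pck2 were the only genes of the 41 with a match to TGATGNAA, which 3.97% of all windows hold, 138 bases before the start in G6pc and 103 bases before it in Pck2. The G6pc3 window held 2 copies of CACGTG, at 99 and 79 bases before the start. Over all 60 windows of the 41 genes, 11 (18.3%) held CACGTG against 7.15% of all windows, and 28 (46.7%) held ACGTG against 19.62%. A window of the 41 genes held a median of 14 CG dinucleotides, against 7 over all windows. These are matches of letters and show neither binding nor a cause.

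Pyruvate carboxylase and fructose bisphosphatase, the remaining gluconeogenic bypasses, were higher in CD24Neg. Pcx, which makes oxaloacetate from pyruvate, measured 170.0, 126.0, 149.3 and 170.3 in CD24Mid and 612.5, 850.1, 825.9 and 873.5 in CD24Neg, 5.11-fold higher without overlap (log2 fold change 2.35, SE 0.15, adjusted p = 7.47e-07). Fbp2, known as the muscle bisphosphatase, measured 2627, 2137, 1964 and 1651 against 5973, 5351, 6574 and 4434, 2.67-fold higher without overlap (adjusted p = 3.26e-05). Fbp1, the liver form, measured 630.6, 554.2, 414.2 and 334.4 against 1251, 1383, 1179 and 618.8. It was 2.26-fold higher (log2 fold change 1.18, SE 0.27, adjusted p = 0.00311), although CD24Neg library 8 fell within the CD24Mid range. Per kb of exon, Fbp2 exceeded Fbp1 in both fractions, at 1426 ± 277.6 against 284.0 ± 78.6 in CD24Mid and 3801 ± 622.4 against 650.9 ± 197.9 in CD24Neg. Their ratio showed no detectable shift (difference -0.24, SE 0.21, exact adjusted p = 0.317).

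Enzymes of opposed steps were also set against each other within each library. The log2 ratio of Pfkl to Fbp1, which make and remove fructose 1,6-bisphosphate, was 0.789, 0.848, 1.30 and 1.34 in CD24Mid and -0.326, -0.191, -0.547 and 0.278 in CD24Neg (difference -1.27, SE 0.23). Hk2 to G6pc, which make and remove glucose 6-phosphate, went from 3.16, 4.72, 3.96 and 4.66 to -1.76, -2.64, -4.14 and -2.62, a difference of -6.92 (SE 0.61) or 120.7-fold. Without CD24Neg libraries 2 and 8 that difference was -7.51. Hkdc1, which was above Hk2 per kb in both fractions and 6.10-fold higher in CD24Neg, was not among the hexokinases compared with G6pc or G6pc3. Pkm to Pck1, at the pyruvate and phosphoenolpyruvate step, shifted by -3.58 (SE 0.40). All 3 were without overlap (exact adjusted p = 0.0357 each), and in these 3 pairs the gluconeogenic enzyme gained in CD24Neg. The direction depended on the paralogs chosen. Over all 14 combinations of the tested paralogs at these 3 steps, compared after the values were seen and without a test, the glycolytic gene lost in 9 and gained in 5. With Pfkp, which led in CD24Neg, the glycolytic gene gained on Fbp1 (difference 0.79, SE 0.40) and on Fbp2 (0.55, SE 0.23), and the fractions overlapped in both. Against Pck2, Pkm gained by 3.63 (SE 0.23) and Pklr by 4.26 (SE 0.22), and Hk1 gained on G6pc3 by 1.21 (SE 0.20), each without overlap. Over all pairs, 16 of 20 passed. These are the 16 without overlap, because a ratio without overlap always takes the smallest exact p. No share over other gene pairs was measured, and 63.8% of all tested single genes did not overlap.

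Fructose and galactose use was led by Khk and Glyctk. Khk, the ketohexokinase that phosphorylates fructose, measured 2661, 1848, 1216 and 1426 in CD24Mid and 8593, 9054, 9187 and 7889 in CD24Neg, 5.07-fold higher (log2 fold change 2.34, SE 0.21, adjusted p = 6.02e-06). Glyctk, a glycerate kinase that follows fructose breakdown, measured 69.6, 65.6, 49.4 and 46.6 against 453.8, 548.9, 589.0 and 468.8, 8.93-fold higher (log2 fold change 3.16, SE 0.17, adjusted p = 3.56e-07). Neither overlapped between fractions. Galt, the uridylyltransferase of galactose use, measured 425.1, 344.3, 285.3 and 310.0 against 1080, 808.8, 806.4 and 1024 (2.73-fold, adjusted p = 1.58e-05). Galk1, the galactokinase that starts the same pathway, measured 662.0, 695.6, 507.3 and 489.5 against 763.2, 646.9, 530.6 and 500.2 and did not pass (log2 fold change 0.05, SE 0.17, adjusted p = 0.806). The log2 ratio of Galk1 to Khk differed by -2.29 (SE 0.21, exact adjusted p = 0.0357, no overlap). Galk1 was called lower in CD24Neg under nuclear scaling (-0.42, adjusted p = 0.0433).

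The phosphoglucomutases, which connect glucose 1-phosphate with glycolysis, were both higher in CD24Neg. The gene named Pgm1 in GENCODE M21 (ENSMUSG00000025791) measured 418.0 to 508.2 against 989.9 to 1368, 2.63-fold higher (adjusted p = 3.76e-06). The gene named Pgm2 there (ENSMUSG00000029171) measured 933.7 to 1067 against 1162 to 1782, 1.41-fold higher (adjusted p = 0.0069). Older annotations exchange these 2 symbols. The Pgm2 call ended under total scaling (log2 fold change 0.07, adjusted p = 0.626) and with quantile normalization (0.17, 0.239). Their log2 ratio moved from -1.16 ± 0.118 to -0.25 ± 0.104 (exact adjusted p = 0.0357).

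Genes that surround the 41 in the same pathways were counted from fixed lists, beside 34.0% of all tested genes higher and 34.3% lower. Of 7 hexose and lactate transporters, 4 were higher and 1 lower (4 and 2 under total and nuclear scaling). Slc2a2, the low-affinity glucose and fructose transporter, was at 123.3 ± 51.9 in CD24Mid and 4959 ± 1694 in CD24Neg (SD, n = 4), 40.5-fold higher. Slc2a5, the fructose transporter, was at 148.6 ± 66.2 and 2213 ± 447.7, and Slc5a1, the sodium-glucose cotransporter, at 3480 ± 846.4 and 29853 ± 8066. Slc16a3, a lactate exporter, was at 40.9 ± 11.0 and 525.0 ± 97.2, while Slc16a1 was 1.53-fold lower. All 5 passed an adjusted p of 0.05. Of 12 further genes of fructose, galactose and glycogen, 8 were higher and 2 lower, a split that became 4 higher and 3 lower under total and nuclear scaling. Among the higher ones were Tkfc, the triokinase that acts further down the same route as Khk (2531 ± 633.4 against 9508 ± 1451), and Galm, the galactose mutarotase (3.27-fold). The lower ones were Pygb, a glycogen phosphorylase (1.69-fold), and Akr1b3, an aldose reductase of the polyol route (577.2 ± 69.7 against 236.0 ± 80.1), of which Akr1b3 was chosen after its value was seen.

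Among 8 further glycolytic genes, 4 were higher and 3 lower, and 3 of each under total and nuclear scaling. Hkdc1, a hexokinase-related gene, was 6.10-fold higher (1694 ± 692.3 against 9791 ± 723.6), while Adpgk, which phosphorylates glucose with ADP, was 4.60-fold lower (437.3 ± 20.6 against 96.6 ± 21.0). Bpgm, the 2,3-bisphosphoglycerate mutase, was 2.21-fold higher. Of 7 further gluconeogenic and shuttle genes, 5 were higher and 1, Got2, was lower. Gpt, the alanine aminotransferase that turns alanine into pyruvate, was 24.96-fold higher (184.4 ± 39.6 against 4574 ± 595.6), and the malate dehydrogenases Mdh1 and Mdh2 were 3.46-fold and 2.88-fold higher. Slc37a4, the glucose 6-phosphate transporter that works with G6pc and was named after its value was seen, was at 679.5 ± 143.0 and 2391 ± 512.1. Of 8 genes of pyruvate entry and the dehydrogenase complex, 2 were higher and 1 lower, a smaller share than the 68.3% called over all tested genes. Under total and nuclear scaling 1 was higher and 4 were lower. Mpc1, a subunit of the mitochondrial pyruvate carrier, was 1.82-fold higher and Pdhx, a structural subunit of the complex, 1.48-fold lower. The pentose phosphate pathway, which branches off at glucose 6-phosphate, had 2 of 8 higher and 1 lower. Pgd was 1.63-fold higher and Rpia 1.94-fold lower. No gene of this list was called higher under total or nuclear scaling, where 4 were lower, or with quantile normalization, where 2 were.

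Regulators of these pathways were split, with 5 of 13 higher and 2 lower, the higher ones near the 34.0% of all tested genes. Under total and nuclear scaling 4 were higher and 5 lower. Ppargc1a, a coactivator of gluconeogenic genes in liver, was at 275.6 ± 56.0 in CD24Mid and 1263 ± 278.1 in CD24Neg (4.58-fold, adjusted p = 4.16e-06). Mlxipl, which encodes the carbohydrate response factor ChREBP, was 1.98-fold higher, its partner gene Mlx 2.26-fold higher, and the related Mlxip 2.39-fold lower. Hif1a, the hypoxia factor that induces many glycolytic genes, was at 731.3 ± 171.3 and 718.3 ± 174.2 and did not pass (adjusted p = 0.902), a gene named after its value was seen. Epas1, another hypoxia factor of the list and also named after its value was seen, was at 248.2 ± 61.9 and 649.9 ± 207.6. It was 2.57-fold higher in CD24Neg without overlap (limma adjusted p = 9.95e-04), and was called higher under total and nuclear scaling and with quantile normalization.

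Within a fraction the libraries also differed in a shared way over the tested 39. CD24Mid library 1 held the highest of the 4 CD24Mid values in 25 of 39 genes, where 32.7% of all tested genes had their highest value in it, and library 5 held the lowest in 21 (25.3% of all). The median deviation from a gene's own CD24Mid mean was 0.24 in library 1, on the log2 scale, and -0.15 in library 5. Library 1 also held the largest enterocyte marker sum of its fraction, 26246 against 14803 to 19496 in the others. In CD24Neg, library 8 was lowest in 22 of 39 genes (25.5% of all), with a median deviation of -0.17. Its enterocyte marker sum, 442037, was the second lowest of the fraction, and its T cell marker sum of 4913 the second highest. CD24Neg library 2, with the lowest enterocyte sum (427300) and the highest T cell sum (6767), had a median deviation of 0.055. CD24Mid library 3, with the lowest enterocyte sum of its fraction (14803), had a median deviation of 0.059. The part of these sums in the deviations was not tested. Leaving out CD24Mid library 1 moved the median log2 fold change of the 39 from 1.13 to 1.25, and leaving out CD24Neg library 8 moved it to 1.23.

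**Figure D4:**
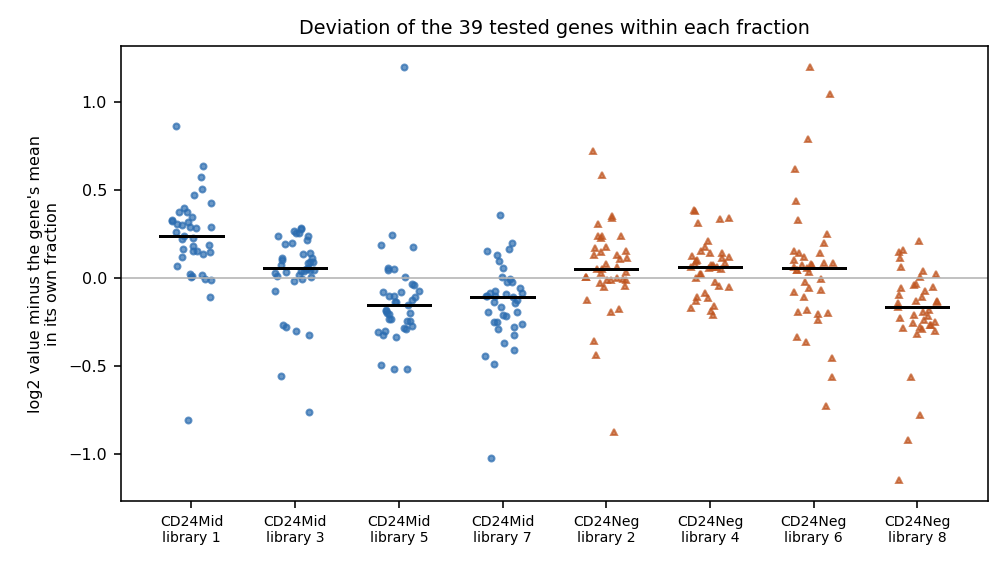
Deviation of each of the 39 tested genes from its mean in its own fraction (y axis, log2), by library (x axis), with the median as a line. Points of CD24Mid library 1 lie mostly above 0 (35 of 39) and those of CD24Neg library 8 mostly below (31 of 39).

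Part of the reads could have been assigned between near-identical genes. In the GENCODE M21 transcripts, 54.5% of the 36-base stretches of Pgk1 also occur in another gene, the pseudogene Pgk1-rs7, and the shares were 36.9% for Pgam1, 31.8% for Pkm, 27.9% for Eno1 and 27.3% for Gapdh. The values of these genes are uncertain to that extent. Whether the counting used strand is not given in the sources used here. Opposite-strand genes cover 52.1% of Glyctk and 22.0% of Pklr exons. For Glyctk the opposite-strand gene D030055H07Rik was itself at means of 3.6 and 6.6 in CD24Mid and CD24Neg, and for Pklr Hcn3 was at 30.6 and 162.8. Pck1, Pck2, G6pc, G6pc3, Hk2, Khk, Fbp1, Fbp2 and the Pdk genes shared at most 3.3% of such stretches with other genes.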

How the data were processed

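RNA-seq of 4 CD24Mid and 4 CD24Neg libraries was used, grouped by the labels' sample group. The deposited signal values are the authors' normalised expression estimates for each Ensembl gene, with decimals, per the file headers. Bowtie 0.12.8 and build NCBIM37 appear in the submitters' processing notes. The version of the estimation tool and the annotation release were not given in the sources used here. Libraries lay at a median ratio of 1.0102 to 1.0104 to the geometric mean, so they were already scaled. Low values lay on even steps, read as the value of 1 read (0.583 to 0.697 in CD24Mid, 1.07 to 1.77 in CD24Neg), which gave the depths. Only 69.7% to 72.2% of low values lay within 0.15 steps of a whole number, at similar shares for short and long genes, so no count model was used. Reads outside mitochondrially encoded genes were 16.9 M ± 1.01 in CD24Mid and 10.2 M ± 3.04 in CD24Neg (exact two-sided permutation p = 0.0286), so low values were less precise in CD24Neg.

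Genes reaching 10 in 4 or more libraries were fitted as log2(value + 0.5), centred on the median ratio, in limma 3.58.1 (R 4.3.3) with trend and robust variance and no covariates. Single-gene p-values come from limma and were adjusted by Benjamini-Hochberg over all tested genes, with a threshold of 0.05. Ratios within a library and shares were compared by exact two-sided permutation tests over the 8 libraries (scipy 1.17.1). The fit was tested on simulated data. All members could be named, and of each other list up to 4 genes by adjusted p plus 1 in a missed direction. Some results are not reported here by name but remain in the counts. The members and lists were chosen with earlier results of these data known. Symbols and exon lengths come from GENCODE M21 by Ensembl identifier (21223 of 23318 matched). Promoters are from RefSeq (GRCm38.p6), another build than that of the files, so no other coordinates are given. The alternatives were quantile normalization, no centring, totals without the 20 most abundant genes or without mitochondrially encoded genes, no filter or one at 50, pseudocounts of 0.1 and 1, no trend and no robust variance, a test against a fold change of 1.5, leaving out each library, and leaving out CD24Neg libraries 2 and 8. Other paralog combinations at opposed steps were added after seeing the data.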

Additional observations from a re-analysis of the deposited data

Results flagged for a closer look

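Of 122 groups of 4 libraries examined (82 of single genes and 40 of ratios), 1 held a library far from the others. Pdk3, a pyruvate dehydrogenase kinase, was at 324.6 in CD24Neg library 8 and at 393.5 to 397.1 in the other 3 CD24Neg libraries so that this gap made up 0.95 of the range of the 4 (Dixon's test). Chance alone marks about 1 in 20 such groups.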

How the results depend on the processing

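Over 19 alternatives, 21 of the 39 tested genes kept their direction and their side of the threshold throughout. The member count stayed at 22 to 28 higher and 4 to 5 lower except in 3 cases. Scaled to totals without the 20 most abundant genes, 9 members were lower, and all genes gave 2842 higher. Scaled to totals without mitochondrially encoded genes, 10 members were lower, and all genes gave 2723 higher and 6695 lower. Tested against a fold change of 1.5, members were 20 higher and 2 lower, and all genes 2360 and 2430. Among genes and ratios called in at least 1 of the fits compared, signs turned, on the log2 scale, with quantile normalization for Pgam1 (-0.004), Ldha (-0.056) and the ratio of Eno1 to Eno3 (-0.028). They turned under the totals without the 20 most abundant genes for Pdhb (-0.308) and Pdk3 (-0.406), and under those without mitochondrially encoded genes for Pdhb (-0.345), Pdk3 (-0.444) and Galk1 (-0.416). Without a call in either fit, signs turned with quantile normalization for Pgk1 (-0.223), Pdhb (-0.232), Galk1 (-0.066), Pfkl to Pfkm (-0.082) and Fbp1 to Fbp2 (0.075), under the first totals for Hk1 (-0.156), Pgk1 (-0.164) and Galk1 (-0.378), and under the second for Hk1 (-0.193) and Pgk1 (-0.202). Leaving out libraries turned uncalled values of Hk1, Pfkl, Pdk3, Galk1, Pfkfb4 to Pfkfb3 and Pdk4 to Pdk2. Other paralogs, chosen after seeing the data, reversed the ratios of opposed enzymes for Pfkp to Fbp1 (0.795), Pfkp to Fbp2 (0.551), Hk1 to G6pc3 (1.212), Pkm to Pck2 (3.627) and Pklr to Pck2 (4.256). The cause was not tested. The stricter test of 1.5-fold also ended the calls of Ldha, Pdk1, Fbp1 and G6pc3. With 1 library left out, members were 26 to 28 higher and 4 to 5 lower, and the exact test of a ratio cannot go below 0.0571, so ratios were then described only. No paired analysis was possible because the 2 fractions share no library number. Whether libraries with neighbouring numbers came from 1 preparation is not given in the labels. Depth limits Hk3, Ldhb, the CD24Mid values of Aldoc, Pfkfb3, Glyctk and G6pc, and the CD24Neg values of Hk1, Eno3 and Pfkm. Among tested genes the lowest value rests on 39.5 estimated reads (Aldoc, CD24Mid library 5). Hk1 rests on 49.8 in CD24Neg library 4, and Pfkfb3 on 50.7 in CD24Mid library 1.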
